A study of Mus musculus with 46 samples.

Results

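The complement and coagulation factors of blood plasma are made for the most part by the liver, and 43 of their genes, 22 of complement and 21 of coagulation, were followed in the livers of male C57BL6/J mice. The genes were taken by symbol, and every array probe that the platform annotation gives to one of these symbols was kept. Probes were found for 39 of the 43 genes, 57 probes in all, of the 25697 probes and 16593 gene symbols on the table, and C3, Cfd, Cfp and Cpb2 were not analysed here. The single probe of Fgb, which encodes the fibrinogen beta chain, was not above background on any array and was not tested, which left 38 genes (19 of complement and 19 of coagulation) and 56 probes. RNA came from 46 livers, 1 mouse per Illumina Mouse Ref8 array with no pooling. Mice were 8 months old and had been on their diets for 6 months, from 2 months of age. Of these, 11 ate ad libitum (AL), 11 were under 40% dietary restriction (DR), 12 ate ad libitum a diet with 14 ppm rapamycin (Rapa), and 12 had 14 ppm rapamycin and 40% restriction together (Rapa+DR). All 4 groups had the same base diet, and rapamycin was given in microencapsulated form. Restricted mice were fed once a day in the afternoon, and the hour of harvest is not given in the sources used here. The meaning of the mouse numbers is not given in the sources used here, and no slide or other batch was available.

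Complement is a cascade of plasma proteins that marks and lyses microbes. It starts from antibody-bound C1q (the classical pathway), from mannose-binding lectins (the lectin pathway) or through factor B (the alternative pathway), meets at the cleavage of C3, and ends in the pore of C5 to C9. Coagulation is a second protease cascade, in which thrombin cuts fibrinogen into fibrin, and it is held back by antithrombin and by protein C with its cofactor protein S. Hepatocytes secrete most of these proteins, while C1q comes mainly from macrophages, and many of the genes respond to inflammatory cytokines such as interleukin 6.

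The clearest movements were in a few genes. C9 and C6 of the complement pore were lower in both restricted groups. The lectin genes Mbl1 and Mbl2 went opposite ways with Rapa+DR, and Pros1, which encodes protein S, was higher in all 3 treated groups. A gene was called when its Benjamini-Hochberg adjusted p in limma (moderated linear model over all 16756 tested probes) was under 0.05 and its group medians differed by over 15%. With DR, 13 of the 38 genes were called against AL (4 higher and 9 lower), beside 15.5% of the 11596 genes tested (9.17% higher and 6.3% lower). With Rapa, 8 were called (4 higher and 4 lower), beside 12.2% of all genes (6.93% higher and 5.25% lower). With Rapa+DR, 25 were called (6 higher and 19 lower), beside 24.7% of all genes (14.9% higher and 9.86% lower). In complement, 1 gene was higher and 7 lower with DR, 1 higher and 3 lower with Rapa, and 2 higher and 13 lower with Rapa+DR. In coagulation the counts were 3 higher and 2 lower, 3 higher and 1 lower, and 4 higher and 6 lower. The median log2 change with Rapa+DR was -0.45 over the complement genes and -0.10 over the coagulation genes, with -0.02 over all genes. With DR the medians were -0.30 and -0.19, and with Rapa -0.14 and 0.02. Over all 38 genes the median was -0.30 with Rapa+DR and -0.25 with DR, beside -0.26 and -0.16 over the 454 tested genes at least as bright as the median of the 38.

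**Figure D1:**
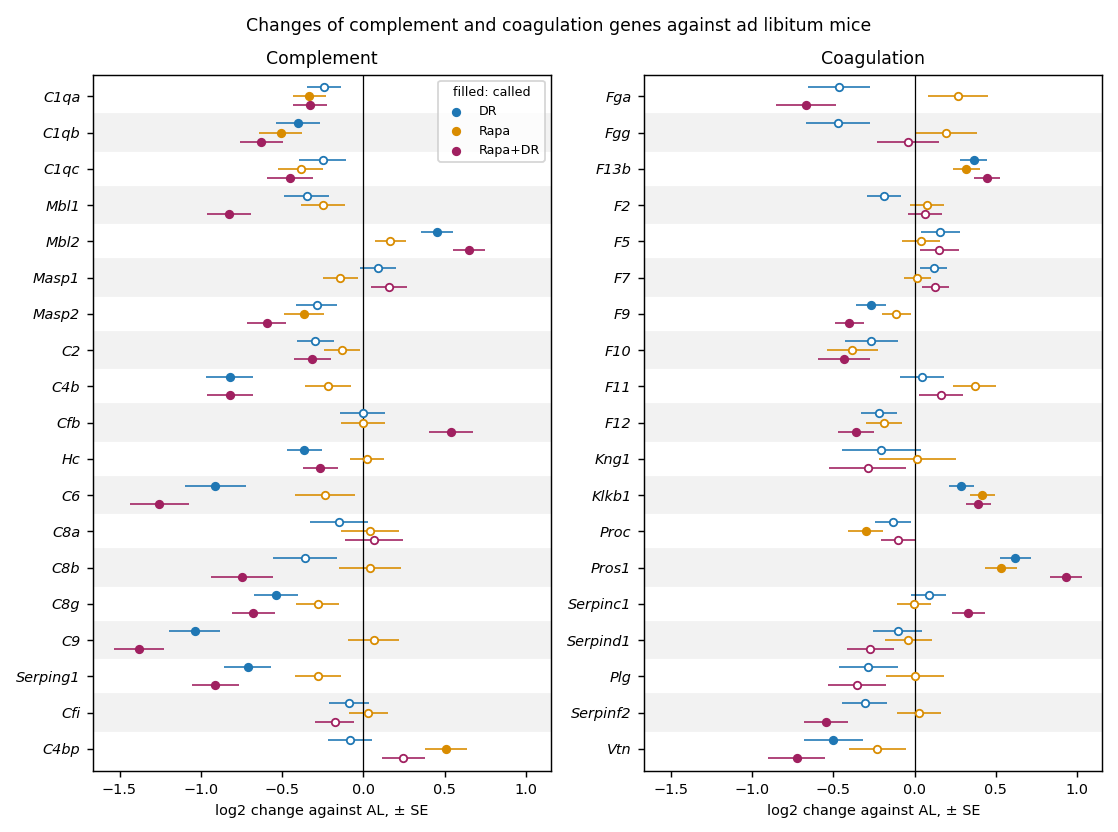
Log2 change against AL (x axis, point ± SE) of the 38 tested genes with DR (11 mice), Rapa (12 mice) and Rapa+DR (12 mice), complement on the left and coagulation on the right, with called changes filled. C9 lies farthest left (-1.38 with Rapa+DR) and Pros1 farthest right (0.93 with Rapa+DR).

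These counts depended on the scale of the arrays. The deposited values are z-scores, each array having been divided by the SD of its own log2 signals. That SD averaged 1.28 for the AL arrays, 1.38 for DR, 1.28 for Rapa and 1.41 for Rapa+DR (with arrays from 1.10 to 1.58), so bright genes move down in arrays of larger SD. Plasma protein genes are bright: the median level of the 38 genes was 11.33, against 6.84 over all genes, on the scale used throughout, z times the mean array SD of 1.34 plus the mean log2 signal of 7.05. A level is a log2 value on that scale, and a change is a difference of group means. Those 454 bright genes had a median level of 12.26, above that of the 38, so they are not matched to the 38 in level. Of the 454, 7.27% were higher and 36.8% lower with Rapa+DR, and 7.71% and 19.4% with DR. Of the 38 genes themselves, 15.8% were higher and 50% lower with Rapa+DR, and 10.5% and 23.7% with DR. When the arrays were only centred, and not divided by their SD, 6 genes were higher and 2 lower with DR, 1 higher and 2 lower with Rapa, and 16 higher and 7 lower with Rapa+DR. On that scale 10.5% of all genes were higher and 3.08% lower with DR, 4.26% and 2.83% with Rapa, and 18.8% and 7.3% with Rapa+DR. Of the bright genes 38.1% were then higher with Rapa+DR, near the 42.1% of the 38 genes. The shares lower were unlike, 4.41% of the bright genes and 18.4% of the 38 (36.8% of complement and 0% of coagulation). The medians over the 38 genes turned to 0.13 with Rapa+DR and 0.12 with DR, beside 0.26 and 0.22 over the bright genes. By pathway, the centred medians with Rapa+DR were -0.18 for complement and 0.38 for coagulation. Under quantile normalization the counts were 5 and 9, 5 and 9, and 7 and 14, beside 7.8% and 9.12%, 7.24% and 7.76%, and 12.1% and 13.9% of all genes. The genes called with the same sign under all 3 scalings were Mbl2, C4b, C9, F13b, Klkb1 and Pros1 with DR, and C1qb and Pros1 with Rapa. With Rapa+DR they were C1qa, C1qb, Mbl1, Mbl2, C4b, Cfb, C6, C9 and Serping1 among the complement genes (9 of 15 called), and F13b, Klkb1 and Pros1 among the coagulation genes (3 of 10).

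**Figure D2:**
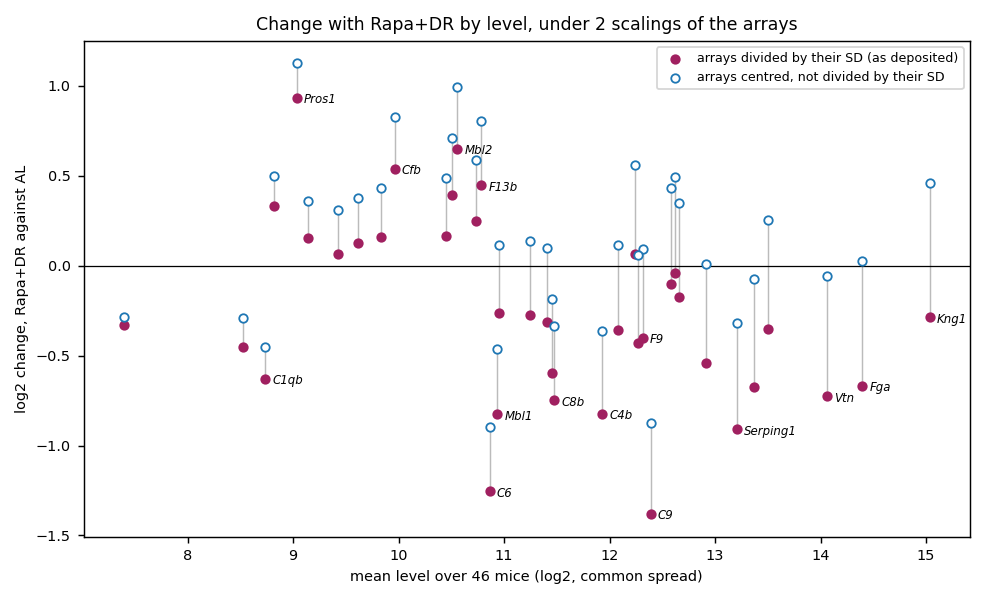
Log2 change with Rapa+DR against AL (y axis) by mean level over 46 mice (x axis, log2 at a common spread) for the 38 genes, with arrays divided by their SD (filled) and only centred (open), a grey line joining the values of 1 gene. The lines lengthen to the right: Kng1 goes from -0.29 to 0.46, while C9 stays below 0 (-1.38 and -0.87) and Pros1 above it (0.93 and 1.13).

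Within groups the same relation was seen from mouse to mouse. Over the 19 brighter genes the correlation between a gene's deviation from its group mean and the array's SD was negative in all 19, with a median of -0.76 over the 46 mice. It was negative in 6 of the 19 dimmer genes, with a median of 0.05. Kng1, which encodes kininogen and was the brightest of the 38, had r = -0.98, whereas C9 had -0.24, C6 0.13, Mbl1 0.04 and Pros1 0.12. All values of an array share its SD, so these correlations are descriptions only. The residual SD between mice ran from 0.19 for Klkb1 to 0.57 for Kng1. AL mouse 11, whose array had the largest SD in its group, had the lowest AL value of 20 of the 38 genes. Without it, 17 genes were called with DR, 9 with Rapa and 26 with Rapa+DR.

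Of the liver markers, the hepatocyte genes Ttr, Apoa1, Cps1, Ass1 and Serpina1a were above background on all 46 arrays. The probe of Alb was above background on 18 arrays, and those of Tat and Fabp1 were above it on none. The hepatocyte genes did not move as 1 block: with Rapa+DR, Apoa1 was lower (-0.73), Ass1 lower (-0.63), Cps1 higher (0.65) and Ttr not called (-0.42). On the centred scale, Apoa1 (0.06) and Ass1 (0.0046) were not called, while Cps1, Ttr (0.33) and Serpina1a (0.56) were higher. Of the red cell markers, Alas2 was lower with DR (-1.04) and Rapa+DR (-1.15), and the summed linear level of the 2 tested overlapped in all groups (5747 to 37500). Of 3 pancreatic acinar markers tested, Cela1 was lower with DR (-0.64) and Rapa+DR (-0.75), and their summed level had a median of 906 in AL (432 to 1283), 576 in DR (517 to 786), 806 in Rapa (494 to 1099) and 591 in Rapa+DR (469 to 761). Of 3 adipocyte markers tested, Car3, which the liver also expresses, was lower with DR (-0.68) and higher with Rapa (0.90). On the centred scale, the DR calls of Cela1 (-0.49) and Car3 (-0.30) did not remain. The summed level of the 3 adipocyte markers ran from 3260 to 15294 in AL and 2095 to 5496 in DR. It ran from 5864 to 16130 in Rapa and 2232 to 7697 in Rapa+DR. Of 8 endothelial markers tested, Stab2 was lower with Rapa (-0.41), and Clec4g with Rapa (-0.33) and Rapa+DR (-0.37). Clec4g was not called in either group with arrays only centred (-0.36 and 0.03). The changes of the 8 were positive in 2 and negative in 6 with Rapa, and positive in 5 and negative in 3 with Rapa+DR. Their summed level ran from 3461 to 4777 in AL, 2901 to 4400 in DR, 2545 to 4526 in Rapa and 2537 to 4220 in Rapa+DR. The part of these cells in the results was not tested.

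Sequences before a transcription start are shown for 5 genes. These genes were chosen because they were called with the same sign in both DR and Rapa+DR under all 3 scalings. Each sequence is the 250 bases before a RefSeq transcription start (GRCm38.p6), written along the strand of the gene. For F13b and Mbl2 the RefSeq gene begins earlier (139501547 and 30232906), so their windows reach into the gene. The marked match of F13b lies past that earlier beginning. C4b shared that behaviour and had no such entry. Capitals mark letters that match 1 of 4 motifs named for regulators of liver plasma protein genes, on either strand: the HNF1 half-site GTTAAT, the C/EBP motif TTNNGCAA, the STAT motif TTCNNNGAA and the HNF4 motif TGNACTTTG.
C9, chr15:6445096-6445345, plus strand: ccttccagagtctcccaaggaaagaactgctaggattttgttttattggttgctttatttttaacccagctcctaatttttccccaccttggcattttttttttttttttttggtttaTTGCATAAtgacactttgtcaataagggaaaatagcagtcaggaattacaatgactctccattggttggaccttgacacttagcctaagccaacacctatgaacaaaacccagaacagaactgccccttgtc
Mbl2, chr19:30232678-30232927, plus strand: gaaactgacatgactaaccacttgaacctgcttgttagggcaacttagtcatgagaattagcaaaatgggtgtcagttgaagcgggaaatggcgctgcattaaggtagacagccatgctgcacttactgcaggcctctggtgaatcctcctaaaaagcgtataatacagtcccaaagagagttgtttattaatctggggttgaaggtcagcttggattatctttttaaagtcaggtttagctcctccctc
Pros1, chr16:62854057-62854306, plus strand: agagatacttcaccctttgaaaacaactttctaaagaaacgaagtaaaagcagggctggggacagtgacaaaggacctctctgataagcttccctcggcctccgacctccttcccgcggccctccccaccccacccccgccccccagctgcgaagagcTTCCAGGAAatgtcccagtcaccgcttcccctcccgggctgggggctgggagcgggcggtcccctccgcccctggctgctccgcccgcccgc
F13b, chr1:139501457-139501706, plus strand: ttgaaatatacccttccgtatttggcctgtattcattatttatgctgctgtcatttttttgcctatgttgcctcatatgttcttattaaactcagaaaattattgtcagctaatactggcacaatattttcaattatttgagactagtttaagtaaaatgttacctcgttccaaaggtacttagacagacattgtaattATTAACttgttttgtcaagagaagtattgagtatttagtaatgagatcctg
Klkb1, chr8:45294836-45295085, minus strand: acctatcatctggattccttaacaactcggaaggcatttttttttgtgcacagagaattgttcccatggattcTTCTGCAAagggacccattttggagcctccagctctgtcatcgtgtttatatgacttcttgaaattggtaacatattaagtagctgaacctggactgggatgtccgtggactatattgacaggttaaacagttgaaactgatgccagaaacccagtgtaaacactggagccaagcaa
The C9 and Klkb1 windows each held 1 C/EBP match, the F13b window 1 HNF1 half-site and the Pros1 window 1 STAT match, while the Mbl2 window held none of the 4. Windows were available for 33 of the 43 genes (34 windows). Of these, 26.5% held the HNF1 half-site, against 6.43% of all 32851 windows of the same length. For C/EBP the shares were 20.6% and 9.56%, for STAT 17.6% and 7.02%, and for HNF4 2.94% and 1.19%. The TATA box TATAAA was found in 8.82% of these windows and 12.4% of all, and the E-box CACGTG in none and 6.02%. A match is only a run of letters.

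The complement pore held the largest decreases. Of its 6 genes, 4 were lower with DR, none with Rapa and 5 with Rapa+DR, and none was higher. Over all genes 6.3%, 5.25% and 9.86% were lower, and over the bright genes 19.4%, 9.25% and 36.8%. Of the pore genes, C9 alone was called with DR under all 3 scalings, and C6 and C9 with Rapa+DR. C9 (ILMN_2937375), whose protein closes the ring of the pore, ran from 12.17 to 13.27 in AL (median 13.07), 11.56 to 12.38 in DR (11.85), 12.19 to 13.89 in Rapa (13.02) and 11.21 to 12.04 in Rapa+DR (11.54). Every Rapa+DR mouse lay below every AL and every Rapa mouse, and 8 of 11 DR mice lay below the AL range. C9 changed by -1.04 ± 0.16 (SE) with DR, 2.05-fold lower (adjusted p = 3.6e-06), and by -1.38 ± 0.15 with Rapa+DR, 2.60-fold lower (adjusted p = 2.24e-09). With Rapa alone the change was 0.06 ± 0.15 (adjusted p = 0.853). A second C9 probe was also lower in both restricted groups (-0.83 and -0.51), and the remaining one, above background on 23 arrays, stayed near 0.

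C6 (ILMN_2798129), which joins C5b at the start of the pore and lies on the same chromosome 15 as C9, ran from 10.74 to 11.91 in AL (median 11.40), 9.68 to 11.03 in DR (10.71), 10.44 to 11.91 in Rapa (11.42) and 9.10 to 10.96 in Rapa+DR (10.26). The restricted groups overlapped the foot of the AL range, with 6 of 11 DR and 11 of 12 Rapa+DR mice below it. Its change was -0.91 ± 0.19 with DR (1.88-fold lower, adjusted p = 0.000304), -0.24 ± 0.18 with Rapa (adjusted p = 0.45) and -1.25 ± 0.18 with Rapa+DR (2.39-fold lower, adjusted p = 4.93e-07). With arrays only centred, the DR value was -0.61 and was not called (adjusted p = 0.0863). The second C6 probe was lower in the same 2 groups (-0.58 and -0.78).

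The C8 protein has 3 chains from 3 genes, which did not behave alike. C8g, the gamma chain, was lower with DR (-0.53 ± 0.14, adjusted p = 0.00337) and Rapa+DR (-0.68 ± 0.13, adjusted p = 7.22e-05). Its AL values ran from 13.11 to 14.25 (median 13.66), its DR values from 12.90 to 13.70 (13.21), its Rapa values from 12.89 to 14.22 (13.47) and its Rapa+DR values from 12.41 to 13.36 (13.08), with overlap throughout. C8b, the beta chain, went from 10.42 to 12.35 in AL (median 11.88), 10.75 to 11.89 in DR (11.29), 10.87 to 12.64 in Rapa (11.70) and 10.48 to 11.74 in Rapa+DR (10.92). It was lower with Rapa+DR (-0.75 ± 0.19, adjusted p = 0.00186), where all 12 mice lay below the AL median and none below the AL range. C8a, the alpha chain, which neighbours C8b, was called in no comparison (-0.15, 0.04 and 0.06 with DR, Rapa and Rapa+DR). Hc, the gene of C5, ran from 10.57 to 11.60 in AL (median 11.08), 10.50 to 11.08 in DR (10.70), 10.73 to 11.91 in Rapa (11.06) and 10.65 to 11.31 in Rapa+DR (10.71). Its level fell with DR (-0.36 ± 0.11, adjusted p = 0.0129) and Rapa+DR (-0.26 ± 0.11, adjusted p = 0.0441). With arrays only centred, none of the C8g, C8b and Hc calls remained (C8g -0.07 and -0.07, C8b -0.33 with Rapa+DR, Hc -0.08 and 0.11).

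**Figure D3:**
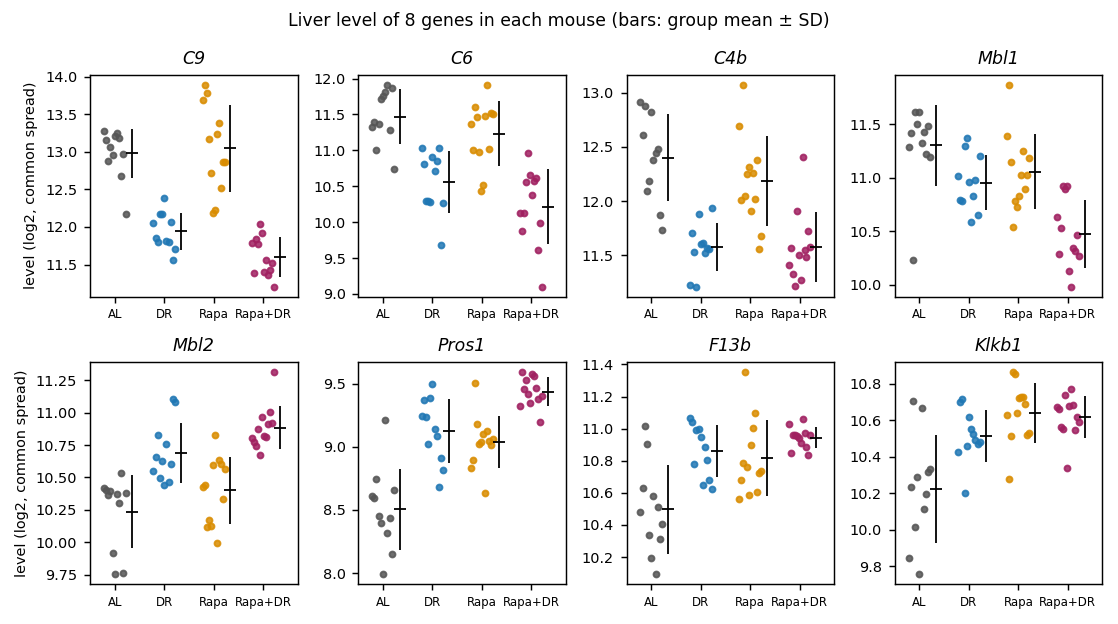
Level (y axis, log2 at a common spread) of 8 genes in each mouse (points) by group (x axis), with bars for the group mean ± SD (n = 11, 11, 12 and 12). In C9 the Rapa+DR points (11.21 to 12.04) lie below all AL points (12.17 to 13.27), and in Mbl2 they (10.67 to 11.31) lie above all AL points (9.75 to 10.53).

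At the start of the classical pathway the 3 chains of C1q, whose genes lie side by side on chromosome 4, were lower. C1qb (ILMN_2619620) ran from 8.87 to 9.83 in AL (median 9.04), 7.91 to 9.09 in DR (8.79), 8.13 to 9.35 in Rapa (8.51) and 7.88 to 8.90 in Rapa+DR (8.52). Nearly all Rapa+DR mice (11 of 12) were below the AL range, and 8 of 11 DR and 9 of 12 Rapa mice were. It was called in all 3 groups, at -0.40 ± 0.13 with DR (adjusted p = 0.0294), -0.51 ± 0.13 with Rapa (adjusted p = 0.00544) and -0.63 ± 0.13 with Rapa+DR (adjusted p = 0.000188). C1qa ran from 7.29 to 7.92 in AL (median 7.61), 6.90 to 7.70 in DR (7.42), 6.79 to 7.74 in Rapa (7.31) and 6.85 to 7.66 in Rapa+DR (7.33). It was lower with Rapa (-0.33 ± 0.10, adjusted p = 0.0221) and Rapa+DR (-0.33 ± 0.10, adjusted p = 0.0108), and its DR value of -0.24 was not called (adjusted p = 0.105). C1qc was lower with Rapa+DR alone (-0.45 ± 0.14, adjusted p = 0.00903). With arrays only centred, this call, the Rapa call of C1qa and the DR call of C1qb did not remain.

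Macrophage markers were read beside C1q, since Kupffer cells, the macrophages of the liver, are a source of it. Of 13 listed marker symbols 8 were tested, and 1 of these was called. This was Clec4f, a lectin of Kupffer cells, lower with DR (-0.54), Rapa (-0.61) and Rapa+DR (-0.70). The summed linear level of the 8 ran from 1562 to 2658 in AL (median 1877), 1017 to 2070 in DR (1789), 1330 to 2154 in Rapa (1710) and 1154 to 2085 in Rapa+DR (1632). Adgre1, Marco, Timd4 and Cd14 were dim (mean levels 6.53 to 7.18). Fewer cells of a type and less RNA per cell cannot be told apart in whole liver, and the part of macrophage number in the C1q values was not tested.

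The 2 mannose-binding lectins parted. Mbl2 (ILMN_1258500), which encodes mannose-binding lectin C, ran from 9.75 to 10.53 in AL (median 10.37), 10.44 to 11.10 in DR (10.63), 9.99 to 10.83 in Rapa (10.43) and 10.67 to 11.31 in Rapa+DR (10.85). Every Rapa+DR mouse was above every AL mouse, as were 8 of 11 DR mice. The change was 0.46 ± 0.10 with DR (1.37-fold, adjusted p = 0.000641), 0.17 ± 0.10 with Rapa (adjusted p = 0.278) and 0.65 ± 0.10 with Rapa+DR (1.57-fold, adjusted p = 8.22e-07). Mbl1 (ILMN_1238266), which encodes mannose-binding lectin A, ran from 10.23 to 11.62 in AL (median 11.42), 10.59 to 11.37 in DR (10.96), 10.54 to 11.87 in Rapa (11.02) and 9.98 to 10.92 in Rapa+DR (10.40). A single AL mouse, mouse 3, had the value of 10.23, and all other AL mice lay above the whole Rapa+DR range. Mbl1 was lower with Rapa+DR (-0.83 ± 0.13, 1.77-fold, adjusted p = 3.8e-06), while -0.35 ± 0.14 with DR (adjusted p = 0.0683) and -0.25 ± 0.13 with Rapa (adjusted p = 0.238) were not called.

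The serine protease Masp2, which mannose-binding lectin activates, was lower with Rapa (-0.36 ± 0.12, adjusted p = 0.0361) and Rapa+DR (-0.60 ± 0.12, adjusted p = 0.000145) on its brightest probe. Its 3 probes disagreed, since a dim one (mean level 7.87) was higher with Rapa (0.44) and Rapa+DR (0.40). Levels on the brightest probe ran from 10.90 to 12.19 in AL (median 11.86), 11.23 to 11.79 in DR (11.50), 10.59 to 12.03 in Rapa (11.37) and 10.78 to 11.52 in Rapa+DR (11.19), and 1 of 12 Rapa+DR mice was below the AL range. With arrays only centred, neither call on the brightest probe remained. Masp1 was called in no comparison with AL.

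C4b (ILMN_3049559), whose product is shared by the classical and lectin routes, ran from 11.74 to 12.92 in AL (median 12.44), 11.21 to 11.94 in DR (11.57), 11.56 to 13.07 in Rapa (12.15) and 11.22 to 12.40 in Rapa+DR (11.53). Most restricted mice were below the AL range (9 of 11 with DR and 10 of 12 with Rapa+DR), and the Rapa mice spread over it. It fell by 0.82 on the log2 scale in both restricted groups (SE 0.15 and 0.14, 1.77-fold lower, adjusted p = 4e-05 and 1.12e-05), and its Rapa value was -0.22 ± 0.14 (adjusted p = 0.347). C4a is a near-identical copy of C4b, so the probe may read both. C2, which pairs with C4b, was lower with Rapa+DR (-0.31 ± 0.11, adjusted p = 0.0242). Its AL values of 10.95 to 12.03 (median 11.64) overlapped those of DR (11.09 to 11.49, median 11.27), Rapa (10.98 to 12.18, median 11.43) and Rapa+DR (10.99 to 11.92, median 11.19), and the change was 0.10 with arrays only centred.

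Cfb (ILMN_1230853), factor B of the alternative pathway and the direct neighbour of C2 on chromosome 17, moved the other way. It ran from 9.06 to 10.13 in AL (median 9.96), 9.49 to 10.25 in DR (9.83), 9.43 to 10.64 in Rapa (9.71) and 9.93 to 10.96 in Rapa+DR (10.31). The first 3 groups overlapped closely, and 10 of 12 Rapa+DR mice were above the AL range. Within Rapa+DR, mice 1 to 6 ran from 10.23 to 10.96 and mice 7 to 12 from 9.93 to 10.36. Rapa mice 11 and 12 (10.64 and 10.52) stood above the other Rapa mice (9.43 to 10.13). The change with Rapa+DR was 0.54 ± 0.13 (1.45-fold, adjusted p = 0.00144), and with DR and Rapa it was -0.00 ± 0.14 and -0.00 ± 0.13 (adjusted p = 0.989 and 0.996).

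Among the complement regulators, Serping1 (ILMN_2913166), the C1 inhibitor that also restrains plasma kallikrein, ran from 12.79 to 14.24 in AL (median 13.80), 12.56 to 13.71 in DR (12.96), 12.75 to 13.84 in Rapa (13.40) and 12.54 to 13.44 in Rapa+DR (12.65). The ranges overlapped, with 8 of 12 Rapa+DR and 2 of 11 DR mice below that of AL. It changed by -0.71 ± 0.15 with DR (adjusted p = 0.000322) and -0.91 ± 0.14 with Rapa+DR (1.88-fold lower, adjusted p = 2.22e-06), and by -0.25 and -0.32 with arrays only centred, where the DR value was not called (adjusted p = 0.153). Its deviations within groups followed the array SD (r = -0.86). C4bp, which binds C4b and helps to destroy it, was higher with Rapa (0.51 ± 0.13, 1.42-fold, adjusted p = 0.00549) and not with DR (-0.08 ± 0.13). Its values ran from 10.19 to 11.20 in AL (median 10.54), 10.05 to 10.97 in DR (10.30), 10.52 to 11.86 in Rapa (11.01) and 10.32 to 11.41 in Rapa+DR (10.83), so the Rapa mice reached higher but overlapped. With arrays only centred, the Rapa call of C4bp did not remain. Cfi, the protease that cuts C4b and C3b, was called in no comparison with AL on the deposited scale.

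In coagulation, 3 of the 4 increases with Rapa+DR were called under all 3 scalings, and none of the 6 decreases was. Pros1 (ILMN_1235499), protein S, the cofactor of activated protein C, ran from 7.99 to 9.21 in AL (median 8.45), 8.68 to 9.50 in DR (9.14), 8.63 to 9.50 in Rapa (9.04) and 9.19 to 9.59 in Rapa+DR (9.44). A single high AL mouse kept the ranges in contact, and 11 of 12 Rapa+DR mice were above all AL mice. The changes were 0.62 ± 0.10 with DR (1.54-fold, adjusted p = 6.39e-06), 0.53 ± 0.10 with Rapa (1.45-fold, adjusted p = 0.00012) and 0.93 ± 0.10 with Rapa+DR (1.91-fold, adjusted p = 2.6e-10). The other anticoagulants moved less. Serpinc1, antithrombin, was higher with Rapa+DR (0.33 ± 0.10, 1.26-fold, adjusted p = 0.0102), with values from 8.31 to 9.16 in AL (median 8.77), 8.55 to 9.25 in DR (8.71), 8.14 to 9.10 in Rapa (8.76) and 8.65 to 9.45 in Rapa+DR (9.04), and its second probe was higher there too (0.53). Proc, protein C, ran from 12.14 to 13.22 in AL (median 12.74), 12.17 to 13.27 in DR (12.56), 12.05 to 12.81 in Rapa (12.39) and 12.24 to 13.06 in Rapa+DR (12.61). It was lower with Rapa (-0.30 ± 0.11, adjusted p = 0.0485) on 1 probe, while its second probe was called with Rapa+DR (-0.31) and not with Rapa. Serpind1, heparin cofactor II, was called in no comparison.

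F13b (ILMN_2896248), the carrier subunit of the factor that crosslinks fibrin, ran from 10.09 to 11.02 in AL (median 10.48), 10.62 to 11.06 in DR (10.89), 10.56 to 11.35 in Rapa (10.75) and 10.83 to 11.06 in Rapa+DR (10.95). The treated groups sat in the upper part of a wide AL range, with 2 mice of each above it. Its changes were 0.36 ± 0.08 with DR (adjusted p = 0.00138), 0.32 ± 0.08 with Rapa (adjusted p = 0.00522) and 0.45 ± 0.08 with Rapa+DR (1.36-fold, adjusted p = 3.16e-05). Klkb1 (ILMN_2924942), plasma prekallikrein of the contact pathway, ran from 9.76 to 10.70 in AL (median 10.23), 10.20 to 10.72 in DR (10.49), 10.28 to 10.86 in Rapa (10.67) and 10.34 to 10.77 in Rapa+DR (10.64). Here too the AL mice spread most and covered the lower part. Its changes were 0.29 ± 0.08 with DR (adjusted p = 0.00704), 0.42 ± 0.08 with Rapa (1.33-fold, adjusted p = 0.000191) and 0.39 ± 0.08 with Rapa+DR (1.31-fold, adjusted p = 8.35e-05). With arrays only centred, the Rapa calls of F13b and Klkb1 did not remain. F11, the next gene to Klkb1 on chromosome 8, was not called on its brightest probe, where Rapa gave 0.37 ± 0.13 (adjusted p = 0.0501).

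The fibrinogen chains Fga and Fgg were among the brightest genes. Fga, the alpha chain, ran from 14.02 to 15.78 in AL (median 14.62), 13.80 to 14.80 in DR (14.01), 14.04 to 16.07 in Rapa (14.70) and 13.65 to 14.66 in Rapa+DR (13.92). Rapa+DR mice lay low, 9 of 12 below the AL range, and the change was -0.67 ± 0.19 (adjusted p = 0.00397), but 0.02 with arrays only centred. Fgg, the gamma chain, was called in no comparison with AL, at -0.47 with DR (adjusted p = 0.0861) and -0.04 with Rapa+DR. After centring alone it was higher with Rapa+DR (0.49, adjusted p = 1.71e-05), and under quantile normalization it was lower with DR (-0.35, adjusted p = 0.0252).

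Among the genes that lead to thrombin, F9 (ILMN_2660793), factor IX, ran from 12.32 to 12.91 in AL (median 12.49), 11.99 to 12.61 in DR (12.22), 12.08 to 12.75 in Rapa (12.42) and 11.86 to 12.74 in Rapa+DR (12.04). On the deposited scale 11 of 12 Rapa+DR mice were below the AL range. It was lower with DR (-0.27 ± 0.09, adjusted p = 0.0308) and Rapa+DR (-0.40 ± 0.09, adjusted p = 0.000373), and 0.11 and 0.09 with arrays only centred. F10, factor X, ran from 11.70 to 13.11 in AL (median 12.61), 11.78 to 12.94 in DR (12.22), 11.44 to 12.82 in Rapa (12.18) and 11.18 to 12.51 in Rapa+DR (12.27), so the ranges overlapped. The Rapa+DR mice were lower (-0.43 ± 0.16, adjusted p = 0.0295) and 0.06 with arrays only centred. F2, the gene of thrombin itself, ran from 11.74 to 12.73 in AL (median 12.20), 11.65 to 12.46 in DR (12.11), 12.06 to 12.71 in Rapa (12.28) and 11.78 to 12.89 in Rapa+DR (12.33), with full overlap. It was not called, at -0.19 ± 0.11, 0.08 ± 0.10 and 0.06 ± 0.10, but with Rapa+DR it was called higher with arrays only centred (0.56, adjusted p = 0.000102) and under quantile normalization (0.25, adjusted p = 0.000803). F5 and F7 were not called either, and F7 was higher with DR (0.31) and Rapa+DR (0.38) with arrays only centred.

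Of the genes that remain, F12, factor XII of the contact pathway, ran from 11.71 to 12.65 in AL (median 12.30), 11.83 to 12.84 in DR (11.96), 11.55 to 12.51 in Rapa (12.13) and 11.72 to 12.53 in Rapa+DR (11.84). Its Rapa+DR values were lower (-0.36 ± 0.11, adjusted p = 0.00902; 0.12 with arrays only centred), but 1 of its 3 probes was higher with DR (0.50) and Rapa (0.51). Kng1, kininogen, was called in no comparison with AL on its brightest probe, while a dim probe was higher with DR (0.24) and Rapa+DR (0.33). The direction of the brightest probe turned with the scale: from -0.20 with DR and -0.29 with Rapa+DR it went to 0.37 and 0.46 with arrays only centred and to 0.28 and 0.31 under quantile normalization, all 4 called higher. A near-identical gene, Kng2, was higher with DR (0.69), Rapa (0.58) and Rapa+DR (0.75). Serpinf2, the inhibitor of plasmin, ran from 12.57 to 13.69 in AL (median 13.11), 12.33 to 13.36 in DR (12.81), 12.51 to 13.73 in Rapa (13.10) and 12.11 to 13.30 in Rapa+DR (12.49). Its values fell with Rapa+DR (-0.54 ± 0.14, adjusted p = 0.00142), where all 3 of its probes were called lower. Plg, plasminogen, was not called on its brightest probe, and its other 2 disagreed with Rapa+DR (0.74 and -0.38). Vtn, vitronectin, which binds both the complement pore and an inhibitor of fibrinolysis, ran from 13.27 to 15.05 in AL (median 14.67), 13.32 to 14.91 in DR (13.89), 13.45 to 14.79 in Rapa (14.14) and 13.21 to 14.58 in Rapa+DR (13.73), with wide overlap. It was lower with DR (-0.50 ± 0.18, adjusted p = 0.0461) and Rapa+DR (-0.73 ± 0.18, adjusted p = 0.00112). With arrays only centred, Vtn stood at 0.02 and -0.06, and Serpinf2 at 0.0083 with Rapa+DR.

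**Figure D4:**
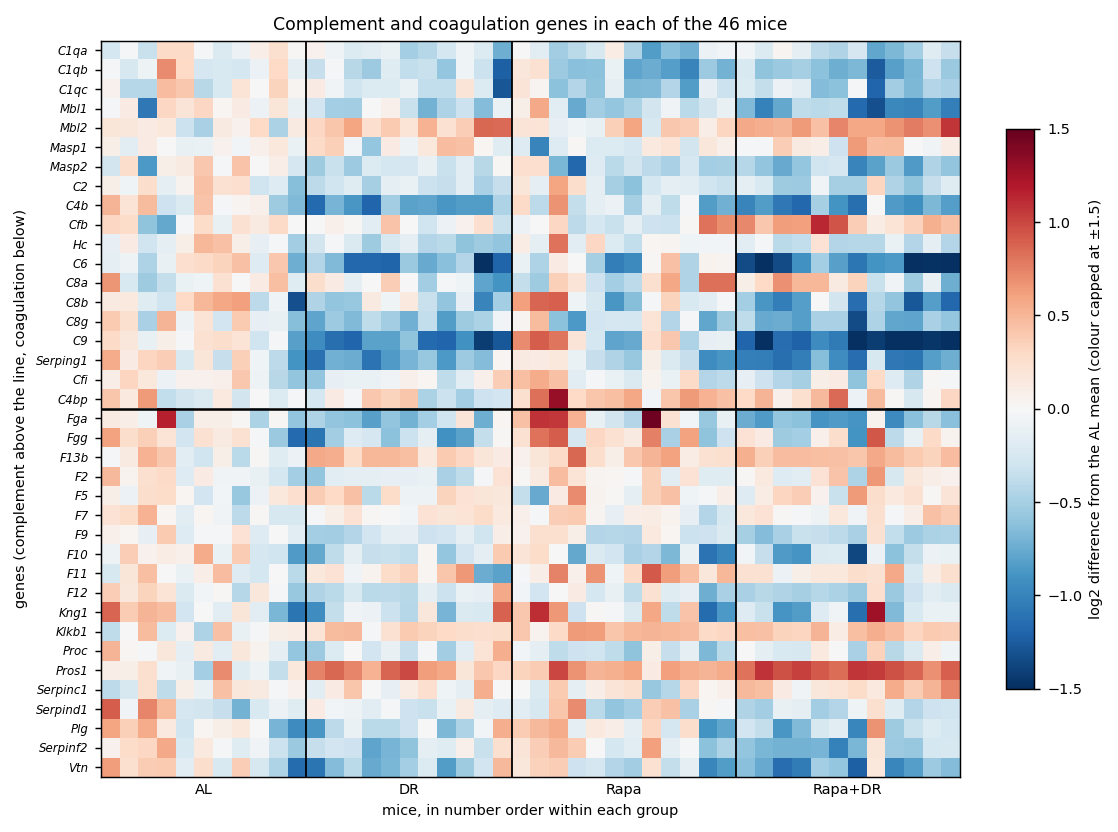
Difference of each gene (rows, complement above the line and coagulation below) in each mouse (columns, by group) from the AL mean, in log2 units, with blue below, red above and colour capped at 1.5 either way. The rows of C6 and C9 are mostly blue across DR and Rapa+DR, and that of Pros1 is mostly red across all 3 treated groups.

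The calls fell into a few patterns, which share the AL mice. Of the 38 genes, 9 were called with DR and Rapa+DR and not with Rapa, 7 of them of complement (Mbl2, C4b, Hc, C6, C8g, C9 and Serping1). These 9 are 23.7% of the 38, beside 7.69% of all genes and 16.1% of the bright genes. Another 10 (26.3%) were called with Rapa+DR alone, beside 8.44% and 17.6%. There were 4 (10.5%) called with Rapa and not DR (C1qa, Masp2, C4bp and Proc), beside 6.05% and 6.83%, and 4 in all 3 groups (C1qb, F13b, Klkb1 and Pros1), beside 5.79% and 6.83%. The remaining 11 (28.9%) were called in none, beside 70% and 48.5%, and with arrays only centred 8 of these 11 were higher with Rapa+DR (Masp1, Cfi, Fgg, F2, F7, F11, Kng1 and Plg). A call in one group and not in another does not show a difference between the groups, which the direct comparisons address.

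Adding restriction to rapamycin (Rapa+DR against Rapa) gave 17 called genes, 5 higher and 12 lower, beside 15.9% of all genes (10% higher and 5.86% lower). Of the bright genes 4.63% were higher and 23.3% lower, and of the 38 genes 13.2% and 31.6%. C9 was -1.44 ± 0.15 (2.72-fold lower, adjusted p = 5.96e-10) with no overlap of the groups, C6 -1.02 ± 0.18 (adjusted p = 2.46e-05) and Fga -0.94 ± 0.18 (adjusted p = 0.00012). Mbl2 was 0.48 ± 0.09 higher (adjusted p = 0.000138), Cfb 0.54 ± 0.13 (adjusted p = 0.00188) and Pros1 0.40 ± 0.09 (adjusted p = 0.00125). With arrays only centred, 15 genes (39.5%) were higher and 2 lower, beside 17% and 5.57% of all genes and 58.4% and 3.74% of the bright genes. Under quantile normalization 5 and 7 were, beside 8.24% and 7.96% of all genes, with C9, C6, Mbl2, Cfb and Pros1 called under all 3 scalings.

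DR directly against Rapa gave 8 called genes, all lower with DR (21.1%), beside 10.2% of all genes (6.06% higher and 4.16% lower). Of the bright genes 3.74% were higher and 13.4% lower. The 8 called genes were C4b, Hc, C6, C9, Serping1, C4bp, Fga and Fgg. C9 was the one called under all 3 scalings (-1.10 ± 0.15, 2.15-fold lower, adjusted p = 8.62e-07). After centring alone, 6 genes (15.8%) were higher and 1 lower, beside 9.7% and 2.41% of all genes and 42.3% and 2.64% of the bright genes. Under quantile normalization 2 and 6 were, beside 5.9% and 5.59% of all genes.

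Adding rapamycin to restriction (Rapa+DR against DR) called 2 genes, beside 1.88% of all genes (1.55% higher and 0.328% lower). Cfb was higher (0.54 ± 0.13, adjusted p = 0.0183) and Mbl1 lower (-0.48 ± 0.13, adjusted p = 0.0397). All 12 Rapa+DR mice were above the DR median of Cfb and below that of Mbl1. With arrays only centred neither was called, and Fgg was higher in their place. Pros1 came near (0.31 ± 0.10, adjusted p = 0.0655). In the test of whether rapamycin acted differently on restricted and ad libitum mice, none of the 38 genes passed in limma, beside 2.11% of all genes (1.06% higher and 1.05% lower), and 4 (10.5%) had an unadjusted p under 0.05, beside 17% of all genes. Cfb had a difference of 0.54 ± 0.19 (p = 0.00647, adjusted p = 0.112), and Klkb1 one of -0.31 ± 0.11 (p = 0.00673, adjusted p = 0.114). Alternatives called up to 2 genes.

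Further genes of the same pathways, and regulators of plasma protein genes, were read from lists. Of 39 further complement symbols, some of them other names of a listed gene, 19 were tested. With DR 1 was higher and 4 lower, with Rapa 3 higher and 2 lower, and with Rapa+DR 4 higher and 6 lower. These are 26.3%, 26.3% and 52.6% of the 19, beside 15.5%, 12.2% and 24.7% of all genes. Clu, clusterin, which blocks the pore, was lower with DR (-0.71) and Rapa+DR (-0.90), and Cpn1, which inactivates the released peptides, was lower in all 3 groups (-0.46, -0.35 and -0.58). On the centred scale neither was called with DR (-0.21 for each). Higher genes of this list included Cr1l in all 3 groups (0.31, 0.31 and 0.44) and C1s1 with Rapa (0.65) and Rapa+DR (0.67). Those calls of Cr1l and C1s1 were made under all 3 scalings. Of 34 further coagulation genes 25 were tested: 3 were higher and 1 lower with DR, 4 higher and none lower with Rapa, and 6 higher and 3 lower with Rapa+DR. These are 16%, 16% and 36% of the 25, near the shares of all genes with DR and Rapa. Tfpi, the inhibitor of the tissue factor pathway, was higher in all 3 groups (0.23, 0.26 and 0.43). So was Vkorc1l1, a vitamin K reductase (0.67, 0.41 and 0.62). Tfpi was not called with DR under quantile normalization (0.19), nor Vkorc1l1 with Rapa with arrays only centred (0.38). Lower ones were Itih4 with DR (-0.65) and Rapa+DR (-0.70), and Serpina10 (-0.85) and Ambp (-0.57) with Rapa+DR. None of these decreases was called with arrays only centred. Of 13 regulators of plasma protein genes 11 were tested: 2 were higher and 1 lower with DR, 1 higher and none lower with Rapa, and 2 higher and none lower with Rapa+DR. Shares called of the 11 were 27.3%, 9.09% and 18.2%, below those of all genes with Rapa and Rapa+DR (12.2% and 24.7%). Cebpb, a C/EBP factor, was higher in all 3 groups (1.34, 0.75 and 1.42), and Il6ra, a chain of the interleukin 6 receptor, was higher with DR (0.60) and Rapa+DR (0.88). Stat3, which carries the interleukin 6 signal to the nucleus, was lower with DR (-0.52), and -0.36 and not called with arrays only centred.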

How the data were processed

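Liver RNA from each mouse was read on its own Illumina Mouse Ref8 array (version 2.0) and signals were extracted with Genome Studio. The deposited score of each probe is the authors' z-score: the log2 signal minus the mean of its array, divided by the SD of its array. Background subtraction is not given in the sources used here. A table of signals before normalization was not used, since its 92 columns carry names that match no single sample.

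The array means and SDs were recovered from the z-scores, because signals were written in steps of 0.1 (100% of values reproduced), and z was multiplied by the mean SD. Probes above background on at least 1 array (upper 0.02 tail of the background mode) were tested with limma 3.58.1 in R 4.3.3 (1 mean per group, 46 arrays, eBayes, Benjamini-Hochberg over 16756 probes), a test checked on simulated data. This is the moderated form of the one-way model in the study's methods. The 6 pairwise comparisons and the interaction come from the same fit. Where a gene had several probes, the brightest on average was used, and other probes are given where they disagreed. Symbols came from the platform annotation, which gave 1 symbol for 23978 probes and none for 1719. The members, roles and lists were chosen with earlier results of these data known. Members called against AL are described by role, up to 4 a role in full, with C1qa and F2 in any case. There is no depth in array data, and precision is set by the number of arrays. Figures were drawn with matplotlib 3.10.9, and sequences and gene order come from RefSeq (GRCm38.p6). The alternatives were quantile normalization, centring alone, other probe filters, array weights, a replicate block, unmoderated variance, no median threshold, probe means and a background covariate, and, added after seeing the data, an array SD covariate and left-out arrays.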

Additional observations from a re-analysis of the deposited data

How the results depend on the processing

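The scale of the arrays was the main limit. With centring alone, 8 genes were called with DR, 3 with Rapa and 1 with Rapa+DR against DR (13, 8 and 2 otherwise), and 9 of the 46 called changes against AL turned sign: with DR, F9 to 0.11 and Vtn to 0.0175, and with Rapa+DR, C2 to 0.10, Hc to 0.112, Fga to 0.0245, F9 to 0.0918, F10 to 0.0613, F12 to 0.12 and Serpinf2 to 0.0083. This alternative leaves out the division itself. Another 16 kept their direction and were no longer called, and 21 kept the call. Under quantile normalization 14 genes were called with Rapa, 4 with Rapa+DR against DR and 1 in the interaction (0 otherwise). With the array SD as a covariate the counts were 13, 4 and 2 for the same 3. Array weights gave 20 with DR and 2 in the interaction. The background level as a covariate gave 4 with Rapa+DR against DR, 5 with DR against Rapa (8 otherwise) and 1 in the interaction. Without the farthest array of each group the interaction called 1. Without a filter on dim probes, 1 gene was called with Rapa+DR against DR. The meaning of the labels' numbers is not given. Of pairs of the same number in different groups, 23 of 67 correlated above 0.1 (mean r -0.01), beside 244 of 726 pairs of other numbers. Such pairs cannot show a break between runs of numbers within a group. In Rapa+DR the background mode was 79.1 to 83.3 in mice 1 to 6 and 66.2 to 72.6 in mice 7 to 12. The second C9 probe ran from 9.93 to 10.46 in Rapa+DR mice 1 to 6 and from 9.16 to 9.66 in mice 7 to 12, the same break. It ran from 9.54 to 9.96 in DR mice 1 to 6 and from 8.92 to 9.26 in DR mice 7 to 11. With the replicate block, 1 gene (Cfb) was called with Rapa+DR against DR, and 12, 8 and 23 against AL. The cause of these shifts was not tested. None of the 46 called changes against AL turned sign under any alternative run other than centring alone. Centring alone also turned the sign of Hc (0.11), C8g (0.24), F9 (0.23), Serpinf2 (0.0218) and Vtn (0.20) with Rapa+DR against Rapa and of Serping1 (0.05) with DR against Rapa, and single genes of these direct comparisons were followed only through the scalings and the array SD covariate.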
